A study of Sus scrofa with 22 samples.

Results

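Cadherins are calcium-dependent cell-adhesion proteins, and their genes were followed here through cloned and fertilized pig fetuses and embryos. Members were taken by symbol: every gene whose name begins with CDH, PCDH, DSG or DSC, may carry further capital letters and then a number. The Sscrofa11.1 annotation holds 50 such symbols, and 27 of them had at least 1 transcript record in the data, among 14389 genes matched in all. Of the 27, 26 are cadherins: CDH1, 6 type II cadherins (CDH6, CDH11, CDH12, CDH19, CDH20, CDH24), 8 atypical or cadherin-related genes (CDH13, CDH17, CDH23, CDHR1, CDHR2, CDHR3, CDHR4, CDHR5), 5 desmosomal cadherins (DSC1, DSG1, DSG2, DSG3, DSG4) and 6 protocadherins (PCDH7, PCDH9, PCDH11X, PCDH12, PCDH17, PCDH19). The last member, DSCR3, matches by spelling only: it encodes a subunit of the retriever sorting complex and is no cadherin, so it was kept out of every count. The other 23 symbols, among them CDH2 (N-cadherin), CDH3, CDH5 (VE-cadherin), CDH15, DSC2, DSC3 and PCDH1, were matched to no record and were left out.

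The fetuses were pigs at day 30 and day 35, with body tissue as the labelled source. At each day there were 2 libraries from cloned fetuses labelled abnormal, 3 from cloned fetuses labelled normal and 2 from naturally fertilized fetuses (NF), and the series title gives the cloning method as somatic cell nuclear transfer. All fetus libraries were labelled male except day 30 NF replicate 2, labelled female. The embryos were blastocysts grown in vitro to day 6, in 4 groups of 2 libraries: WT, XIST-KO and WT+Kdm4A, all labelled male, and IVF, labelled as male and female embryos pooled. XIST, a long non-coding RNA, triggers X-chromosome silencing, and Kdm4A is an enzyme that removes methyl groups from histone lysines. The abnormal and normal labels do not themselves say cloned; this was taken from the design text, which speaks of cloned beside fertilized fetuses and embryos without tying either word to WT, XIST-KO or WT+Kdm4A. XIST and KDM4A had no matched record, so the XIST-KO and WT+Kdm4A labels could not be checked on their own genes. What makes a fetus abnormal, the donor cell line, the number of embryos in a pool and whether replicates are separate animals or cultures are not stated, so p-values measure only the spread between these libraries.

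Classical cadherins span the membrane at adherens junctions, where their outer repeats bind the same cadherin on the next cell and their tails hold catenins, which tie them to actin. Desmosomal cadherins (desmogleins and desmocollins) join cells at desmosomes, where plakoglobin, plakophilins and desmoplakin tie them to keratin filaments. Epithelia carry CDH1, while mesenchyme carries other classical cadherins such as CDH11, and the exchange of CDH1 for others accompanies epithelial to mesenchymal transition. In the early embryo CDH1 holds blastomeres together at compaction and later the trophectoderm. Protocadherins lack the catenin-binding tail of the classical group and are best known from the nervous system and, for PCDH12, from endothelium and placenta.

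Libraries differed in depth, and a few went against their labels. Total expected counts ran from 588882 to 11535824 in fetuses and from 6448823 to 20352041 in embryos, and day 35 abnormal replicate 2 was the shallowest, with 3463757 counts in the next fetus library. That library's gene counts correlated less with its partner, day 35 abnormal replicate 1 (Spearman 0.789), than with day 30 NF replicate 1 (0.908), over genes within these libraries. The Y-linked gene EIF1AY had 0 counts in both day 35 abnormal libraries and in day 30 NF replicate 1, all labelled male, 220 counts in day 30 NF replicate 2, labelled female, and 61 to 209 counts in the other fetus libraries. The counts of cadherins and the calls that turn on these 4 libraries are also given with each left out in turn, never together. At day 35, EIF1AY had 0 counts in both abnormal libraries and 104 to 185 in the normal and NF ones. There the abnormal label cannot be told apart from the lack of EIF1AY counts, whichever library is left out. The same limit holds for every comparison that uses the day 35 abnormal group. Of the fetus markers fixed for other tissues, mesenchymal, muscle, neural, blood and epithelial genes were all present in every group, as labelled body tissue would hold. In such bulk tissue, fewer cells of a type and less RNA per cell cannot be told apart. Embryo libraries held the trophectoderm list at 35500 to 101000 CPM, with HAND1 at 0 in all 4 groups.

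Per length, CDH11, a type II cadherin of mesenchyme and bone-forming cells, was the leading cadherin of every fetus library, and CDH1 led the embryos. CDH11 made up 39.4% to 72.5% of all cadherin TPM (transcript abundance scaled for length and depth) in the 14 fetus libraries. Its group median was 252 TPM in day 30 NF, 193 TPM in day 35 NF, 166 TPM in day 35 abnormal, 149 TPM in day 30 normal, 139 TPM in day 35 normal and 99.7 TPM in day 30 abnormal fetuses. In this order the library ranges of neighbouring groups were apart between day 30 NF (212 to 292 TPM) and day 35 NF (181 to 204 TPM) and between day 30 normal (147 to 150 TPM) and day 35 normal (99.5 to 141 TPM), and overlapped for the other neighbours. CDH13, a cadherin anchored by lipid and lacking a cytoplasmic tail, came next by its median over fetus libraries, at 44.1 TPM. DSG2 (10.7 TPM), CDH24 (9.8 TPM), CDH1 (9.22 TPM) and PCDH12 (8.23 TPM) followed. All 26 cadherins had a count in some fetus library, and 8 of the 26 had one in every fetus library.

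Embryos used far fewer cadherins. Only 12 of the 26 had a count in any embryo library, 14 had none, and CDH1 and CDH23 alone had a count in all 8. CDH1 made up 74.4% to 99.8% of cadherin TPM in 7 embryo libraries. In the eighth, WT replicate 1, CDH1 held 7.4% and DSG2, the desmoglein of simple epithelia, held 82.1%. The summed cadherin level was 226 to 402 TPM in fetus libraries and 1.76 to 72.4 TPM in embryo libraries; fetus and embryo libraries were built differently, so the 2 stages were not tested against each other.

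**Figure D1:**
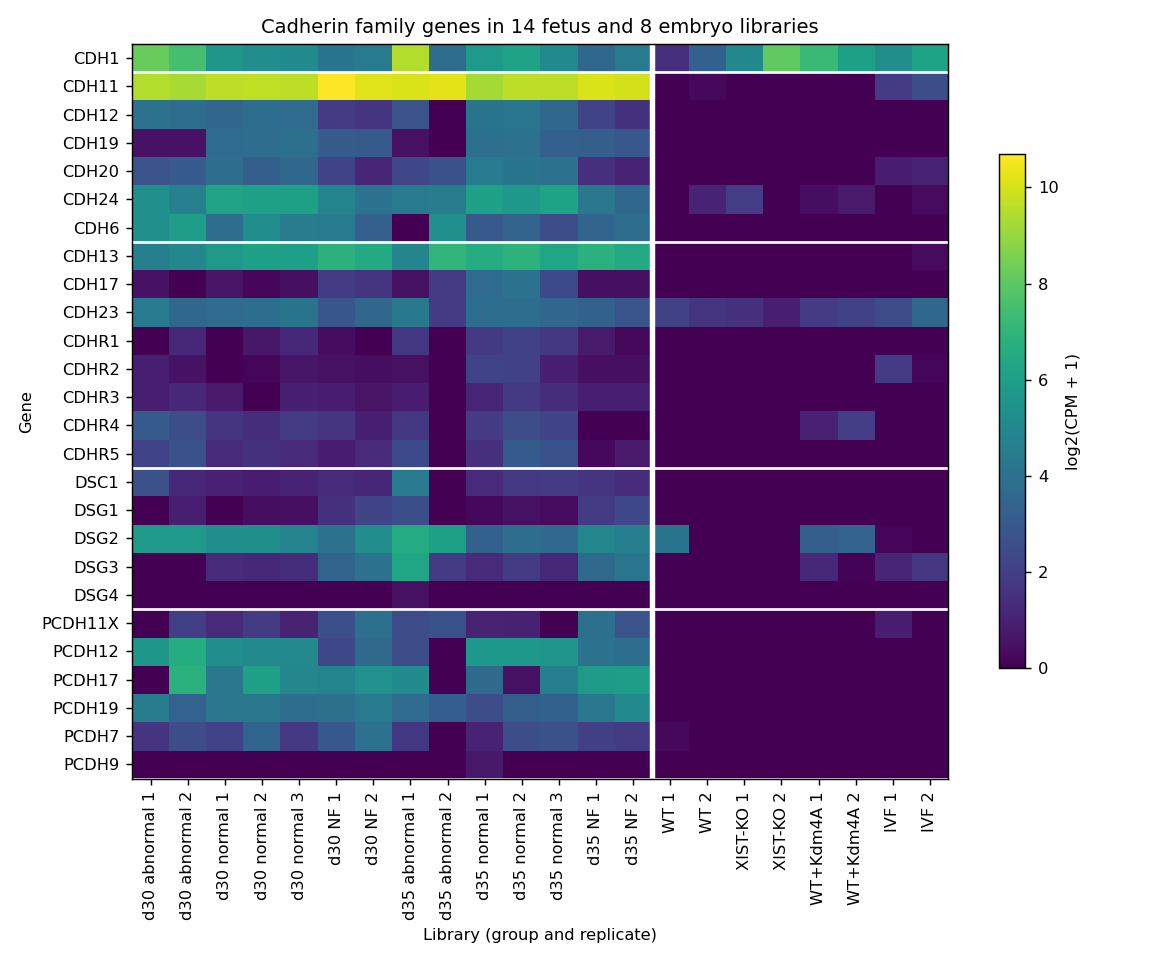
Levels of the 26 cadherins as log2(CPM + 1), genes in rows by class (white lines) and libraries in columns, with fetuses left and embryos right of the thick white line; fetus and embryo CPM were scaled separately. CDH11 is bright across all 14 fetus libraries and near 0 in embryos, CDH1 is the brightest row in most embryo libraries, and most desmosomal cadherins and protocadherins are dark in the embryos.

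Abnormal cloned fetuses were compared with normal ones to ask which cadherins differ between fetuses given these 2 labels. At day 30, CDH19 and CDH24, both type II cadherins, were lower in abnormal fetuses, and no cadherin passed the test as higher. At day 35, 12 of the 23 cadherins tested passed: CDH1, CDH11, DSC1, DSG1, DSG2 and DSG3 were higher and CDH12, CDH17, CDH19, CDH20, CDH24 and PCDH12 lower. Levels are given as CPM, which corrects counts for sequencing depth (TMM), and a gene passed with adjusted p under 0.05 in the quasi-likelihood test of edgeR, adjusted over all 9911 genes tested. Among all genes, 15.4% passed at day 30 (8.93% higher, 6.46% lower) and 23.2% at day 35 (10.9% higher, 12.3% lower). The class and marker counts of this comparison, with all libraries kept, are to be read beside these shares. The median log2 fold change of the tested cadherins was 0.09 at day 30 and -0.51 at day 35, beside -0.02 and 0 for all genes. On log2(TPM + 1), which shifted the median of all genes by -0.26 and -0.32, limma called 0 cadherins higher and 2 lower at day 30 and 1 higher and 8 lower at day 35; no called cadherin changed direction.

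CDH1, E-cadherin, the classical cadherin of epithelia (chromosome 6, 18075487 to 18155986), was measured at 298 and 186 CPM in day 30 abnormal libraries and at 50.2, 36.7 and 34.7 CPM in day 30 normal ones. The 2 groups did not overlap, and the abnormal mean was 5.97 times the normal mean, but the difference missed the threshold (log2 fold change 2.58 ± 0.83, SE; adjusted p = 0.0572). It passed with day 35 abnormal replicate 1 or 2 left out of the shared fit (adjusted p = 0.00041 and 0.000371), with only the compared groups (0.000408) and in DESeq2 (0.0202). At day 35 the abnormal libraries lay far apart, at 696 and 13.5 CPM, on either side of the normal libraries at 54.6, 73.6 and 33.8 CPM. The day 35 call (log2 fold change 2.78 ± 0.83, adjusted p = 0.0326) therefore rested on replicate 1. Without that library the value was -2.02 (adjusted p = 0.108), and leaving out day 30 normal replicate 2 or 3 or any day 35 normal replicate also ended the call, at adjusted p between 0.0507 and 0.105. The call was also lost with only the compared groups (adjusted p = 0.243). Over all 23 alternative settings, each left-out library included, it was lost in 10.

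In day 30 abnormal libraries and day 35 abnormal replicate 1, CDH1 and the summed surface and simple epithelium markers were both above the normal libraries of that day. In day 35 abnormal replicate 2, CDH1 lay below the normal libraries and the marker sum (645 CPM) within their range. The part of these markers in the CDH1 result was not tested. The summed level of these markers, of which 10 of 11 were matched, was 3110 to 4150 CPM in day 30 abnormal and 370 to 414 CPM in day 30 normal libraries. Of the list's 9 tested genes, 8 passed as higher at day 30, beside 8.93% of all genes. At day 35 the sum spread from 645 to 7600 CPM in abnormal libraries and from 533 to 992 CPM in normal ones. TP63, which marks stratified epithelium, had no count in either abnormal group. The trophectoderm list, which shares KRT8 and KRT18 with the epithelial one, gave 2050 to 2630 CPM against 219 to 282 CPM at day 30, with CDX2 at 0 in the normal group, and 270 to 5440 CPM against 281 to 420 CPM at day 35.

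Among the type II cadherins, 2 of 6 passed as lower at day 30, and at day 35 4 passed as lower and 1 as higher. Over all genes, 6.46% were lower at day 30, and 12.3% were lower and 10.9% higher at day 35. CDH19, known from Schwann cell precursors and other neural crest glia (chromosome 1, 155669361 to 155758550), showed the largest difference among the cadherins that passed at each day. It was measured at 12.5, 13.1 and 14.4 CPM in day 30 normal libraries and at 0.437 and 0.428 CPM in abnormal ones, which together held 2 counts. The pooled normal level was 31 times the abnormal one (95% exact counting interval 8.47 to 257; log2 fold change -4.86 ± 0.52, adjusted p = 0.000422). At day 35 the normal libraries gave 13.8, 15.4 and 8.68 CPM, and the abnormal ones 0.384 and 0 CPM, a single count in all. The pooled ratio was 38.3 (6.79 to 1520), with a log2 fold change of -5.15 ± 0.64 and adjusted p = 0.000544. Groups did not overlap at either day, and CDH19 passed with each of the 14 libraries left out in turn, also across both days (-5.01 ± 0.41, adjusted p = 2.59e-05).

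The neural crest and glia markers, 4 of 7 of them matched, were also lower in these libraries: their sum was 25.2 to 55 CPM in day 30 abnormal and 106 to 131 CPM in the normal libraries of that day, and 2.7 to 28.8 CPM against 289 to 581 CPM at day 35. SOX10, a transcription factor of neural crest and glia, had no count in either day 35 abnormal library. Of the 4 tested markers, 3 passed as lower at day 30 and 4 at day 35, beside 6.46% and 12.3% of all genes. Their part in the difference in CDH19 was not tested.

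CDH24, CDH20 and CDH12 were the other type II cadherins called lower. CDH24 (chromosome 7, 75990185 to 76001133) stood at 39.8 and 23.9 CPM in day 30 abnormal libraries and at 74.5, 69 and 65.5 CPM in normal ones, without overlap (log2 fold change -1.13 ± 0.3, adjusted p = 0.0305). Leaving out day 30 abnormal replicate 2 or any day 30 normal replicate ended that call (adjusted p between 0.0703 and 0.236). At day 35 it was 20.7 and 21.6 CPM (54 and 8 counts) against 67.6, 51.7 and 73.1 CPM (-1.61 ± 0.35, adjusted p = 0.00842), a call lost without day 35 abnormal replicate 1 (-1.59). Over both days its call (-1.37 ± 0.23, adjusted p = 0.00153) held with each library left out.

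CDH20 was lower at day 35, at 3.84 and 5.4 CPM in abnormal (10 and 2 counts) and 20.2, 16.8 and 15.1 CPM in normal libraries (log2 fold change -2.03 ± 0.53, adjusted p = 0.0194). The groups did not overlap, and the call was lost without day 35 abnormal replicate 1 or day 35 normal replicate 1 (adjusted p up to 0.152). At day 30 its value was -0.69 ± 0.44 and did not pass. CDH12, a type II cadherin known from brain, gave 5.75 and 0 CPM in day 35 abnormal and 17, 17.2 and 11.4 CPM in normal libraries (-1.8 ± 0.55, adjusted p = 0.0378). Its libraries did not overlap, but the call was lost with any of 7 libraries left out: both day 30 abnormal, all 3 day 30 normal, and day 35 normal replicates 1 and 2 (adjusted p between 0.0553 and 0.0884). Without day 35 abnormal replicate 1, which left only a library with no count, fitted values were -9.14 for CDH12 and -8.88 for CDH19, and both still passed.

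CDH11 (chromosome 6, 25782746 to 25933753, 1 of its 6 annotated transcripts matched) was higher in day 35 abnormal libraries, at 1070 and 1200 CPM, than in normal ones, at 612, 795 and 797 CPM. The groups did not overlap, and the mean was 1.54 times higher (log2 fold change 0.63 ± 0.18, adjusted p = 0.0288). That call was lost without day 35 normal replicate 1 (adjusted p = 0.0974) or 3 (0.0501). Over all 23 alternative settings, each left-out library included, the call was lost in 6. At day 30 CDH11 was measured at 694 and 627 CPM in abnormal and at 777, 823 and 799 CPM in normal libraries. This difference did not pass (-0.28 ± 0.18, adjusted p = 0.335). CDH6, known from kidney precursors and neural crest, varied widely within groups and did not pass at either day: its day 35 abnormal libraries gave 0 and 40.5 CPM.

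Of the 4 desmosomal cadherins tested, none passed at day 30 in edgeR (unadjusted p under 0.05 for DSG3). At day 35, 4 of 4 passed as higher, beside 10.9% of all genes. Their genes lie side by side on chromosome 6, from DSC1 (115042225 to 115076097) through DSG1 and DSG4 to DSG3 and DSG2 (115400223 to 115453763). DSG2, which joins simple epithelia and heart muscle, was the member whose rise both abnormal libraries shared. It was measured at 95.5 and 67.4 CPM (249 and 25 counts) in day 35 abnormal and at 9.08, 13 and 11.6 CPM in day 35 normal libraries, 7.24 times higher in the mean and without overlap (log2 fold change 2.9 ± 0.36, adjusted p = 0.000553). The call held with each library left out. At day 30 the groups were closer, at 54.6 and 53.9 CPM against 36.4, 39.3 and 26.6 CPM, and the difference did not pass (0.67 ± 0.34, adjusted p = 0.204).

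DSG3, DSG1 and DSC1, the cadherins of stratified epithelium, were high in abnormal replicate 1 alone among the 5 abnormal and normal libraries of day 35. DSG3 gave 77.9 CPM there, 2.7 CPM in replicate 2 and 1.51, 2.76 and 1.37 CPM in the normal libraries, so the groups overlapped. Its log2 fold change of 4.57 ± 0.79 (adjusted p = 0.00354) came to 0.49 (adjusted p = 0.828) without replicate 1. DSC1 gave 20.3 and 0 CPM in the abnormal libraries against 1.51, 2.57 and 2.74 CPM in the normal ones, and DSG1 gave 4.99 and 0 CPM against 0.168, 0.395 and 0.228 CPM. Their values (2.47 ± 0.79, adjusted p = 0.0433, and 3.66 ± 1.01, adjusted p = 0.0235) turned to -6.41 and -3.42 without that library, neither passing. DSG1 was also lost without day 35 normal replicate 1 or 3, and DSC1 with each of 11 of the 14 libraries left out, the exceptions being both day 30 abnormal libraries and day 35 abnormal replicate 2. In day 30 abnormal fetuses DSG3 had no count, where day 30 normal fetuses held 24 counts at 1.37 to 1.66 CPM, at least 2.29-fold higher when a floor of 3 group counts stands for the 0; that difference did not pass (adjusted p = 0.138). DSG4 had a single count in all fetuses and was not tested.

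Among the 7 atypical and cadherin-related genes tested, none passed at day 30 (edgeR; unadjusted p under 0.05 for CDH13 and CDHR4) and 1 passed as lower at day 35. That was CDH17, the cadherin of liver and intestine (chromosome 4, 42508852 to 42597888), at 0.384 and 2.7 CPM in abnormal libraries, 1 count each, and at 12.4, 16 and 4.34 CPM in normal ones. The pooled normal level was 16.8 times higher (95% counting interval 4.59 to 140; log2 fold change -3.79 ± 1.02, adjusted p = 0.0221) and the groups did not overlap. The call was lost without day 35 abnormal replicate 1 (-2.03, adjusted p = 0.262) or day 35 normal replicate 1 or 2 (adjusted p = 0.0544 and 0.0555). The liver markers, 8 of 9 matched, summed to 21.6 to 46 CPM in these abnormal and 167 to 238 CPM in these normal libraries, with SERPINA1 and HNF4A at 0 in the abnormal group. Of these 8 markers 1 passed as higher and 2 as lower, and their part in the result was not tested.

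CDH13 was measured at 23.6 and 29.9 CPM in day 30 abnormal and at 53.5, 68.8 and 65.3 CPM in day 30 normal libraries, which did not overlap, yet the difference missed the threshold (log2 fold change -1.23 ± 0.47, adjusted p = 0.1). It passed without day 35 abnormal replicate 1 or 2 (adjusted p = 0.00319 and 0.00314), which feed only the shared estimate of spread, and with only the compared groups (-1.19, adjusted p = 0.00229). At day 35 the abnormal libraries lay on either side of the normal ones, at 28.8 and 132 CPM. CDH23, a tip-link cadherin of sensory hair cells, differed little at day 30 (0.09 ± 0.47). CDHR1, CDHR2, CDHR4 and CDHR5 stayed under 8 CPM in every fetus library, and CDHR3 was too low to be tested.

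PCDH12, the protocadherin of endothelium and trophoblast (chromosome 2, 143550844 to 143565028), was the only 1 of 5 tested protocadherins that passed, as lower at day 35. It was measured at 4.6 and 0 CPM in day 35 abnormal and at 50.8, 50.7 and 46.1 CPM in day 35 normal libraries (log2 fold change -3.7 ± 0.62, adjusted p = 0.00245). The groups were far apart, and the call held with each library left out, with a fitted value of -10.84 where only the abnormal library without a count was kept. At day 30 the abnormal libraries lay above the normal ones, at 49.4 and 96.6 CPM against 36.4, 32.6 and 31.9 CPM, a difference of 1.12 ± 0.4 that missed the threshold in the shared fit (adjusted p = 0.0833) but passed in DESeq2 (1.18, adjusted p = 0.0436) and with only the compared groups (1.16, adjusted p = 0.0129). PCDH17, PCDH19, PCDH7 and PCDH11X did not pass at either day; PCDH17 ranged from 0 to 114 CPM within the day 30 abnormal group alone, and PCDH9 was not tested.

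The endothelial markers, 10 of 12 of them matched, moved in the same directions as PCDH12. Their sum was 1020 to 1490 CPM in day 30 abnormal and 675 to 700 CPM in day 30 normal libraries, and 202 to 244 CPM against 761 to 858 CPM at day 35, with none at 0 in any fetus group. At day 35, 7 of the 10 passed as lower and none as higher, beside 12.3% and 10.9% of all genes. At day 30, 1 passed in each direction. Their part in the PCDH12 result was not tested.

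Whether the day 35 difference departed from the day 30 difference was tested as an interaction, which 3 of 23 cadherins passed, beside 4.05% of all genes (1.31% higher and 2.73% lower at day 35). The effect on PCDH12 at day 35 minus that at day 30 was -4.81 ± 0.74 on the log2 scale (adjusted p = 0.00797), and the call held with each library left out, reaching -11.96 without day 35 abnormal replicate 1. The effect on DSG2 was larger by 2.23 ± 0.5 (adjusted p = 0.0365), and that on DSG3 by 10.38 ± 2.12 (adjusted p = 0.03), a fitted size that depends on how the 0 counts at day 30 are treated. The DSG2 call was lost with any of 10 libraries left out (value 2.08 to 2.37, adjusted p between 0.0537 and 0.119), namely both day 30 abnormal, both day 35 NF and all 6 normal libraries. The DSG3 call was lost with any of 8 left out, namely both day 30 abnormal libraries, all 3 day 30 normal, day 35 normal replicates 1 and 3, and day 35 abnormal replicate 1, which brought the value to 6.37. Averaged over both days, 7 cadherins passed (31% of all genes; 15.2% higher, 15.8% lower): CDH1, DSC1 and DSG2 higher, and CDH19, CDH20, CDH24 and PCDH12 lower. Of these CDH19, CDH24 and DSG2 (1.78 ± 0.25, adjusted p = 0.000513) held with each library left out. Those of CDH1 (0.28), CDH20 (-1.19) and DSC1 (-2.32) were lost without day 35 abnormal replicate 1, and those of DSC1 (1.47) and PCDH12 (-1.07) without day 30 abnormal replicate 1. For PCDH12 this average joined opposite signs.

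**Figure D2:**
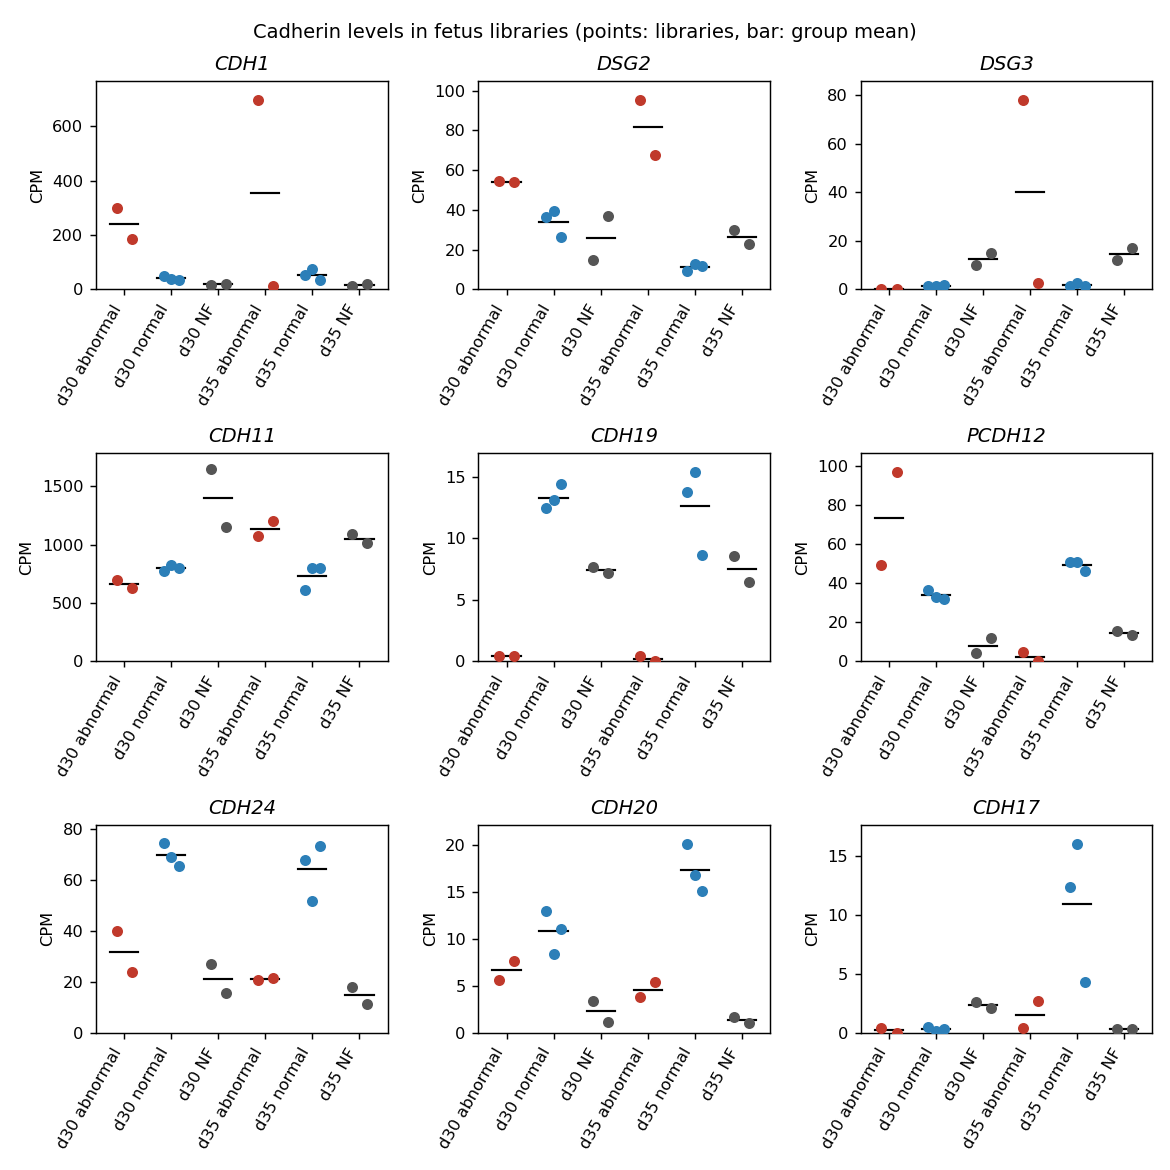
Levels in CPM (linear axes from 0) of 9 cadherins in the 6 fetus groups; each point is a library and each bar the group mean. CDH19 is near 0 in all 4 abnormal libraries, PCDH12 is high at day 30 and near 0 at day 35 in abnormal fetuses, and the high means of CDH1 and DSG3 at day 35 come from a single abnormal library.

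The day 35 counts depended on the abnormal library used. Without abnormal replicate 1, 6 of 24 tested cadherins passed at day 35, 3 higher and 3 lower, beside 28.9% of all genes. Without replicate 2, 14 of 24 passed, 6 higher and 8 lower, beside 35.1%. At day 30, where neither library is part of the contrast but both feed the shared estimate of spread, 6 and 7 of 24 passed, beside 31.5% and 31.6% of all genes.

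Transcripts of the proteins that bind cadherins inside the cell also differed. Of 14 catenin and desmosomal plaque genes tested, 4 were higher and 1 lower in day 30 abnormal fetuses (median log2 fold change 0.64), and 8 were higher and 2 lower at day 35 (median 0.91), beside -0.02 and 0 for all genes, of which 15.4% and 23.2% passed. At day 30, PERP, a desmosomal membrane protein, rose from 15.5 ± 2.28 CPM (SD, n = 3) in normal to 85 ± 36.1 CPM (n = 2) in abnormal fetuses (2.45 ± 0.64, SE; adjusted p = 0.0275 in edgeR). Periplakin (PPL, 2.13 ± 0.61), plakophilin 2 (PKP2, 1.85 ± 0.44) and plakoglobin (JUP, 1.24 ± 0.29) rose with it, while PKP4 fell (-0.84 ± 0.23, adjusted p = 0.0299). At day 35, PERP (2.41 ± 0.64), PKP2 (2.37 ± 0.45) and PPL (2.17 ± 0.6) were again higher, although for PERP and PPL the libraries overlapped. ARVCF, a catenin of the p120 family, was lower, at 41.9 ± 17.3 CPM (n = 2) against 189 ± 31.4 CPM (n = 3; -2.06 ± 0.26, adjusted p = 0.000596). The core catenins CTNNB1 (0.88 ± 0.15, adjusted p = 0.00259) and CTNNA1 (0.68 ± 0.13, adjusted p = 0.00401) were higher without overlap. In a check of the partner genes added after the data were seen, without day 35 abnormal replicate 1, 3 plaque genes were higher and 4 lower at day 35 (median -0.25). The calls of ARVCF, CTNNB1 and CTNNA1 then held, whereas those of PERP (-0.91, adjusted p = 0.372), PPL (-1.12, 0.183) and PKP2 (0.8, 0.245) did not. The 5 genes named at day 30 also passed without either day 35 abnormal library. With replicate 1 or 2 of those left out, 6 plaque genes were higher and 1 lower at day 30, beside 31.5% and 31.6% of all genes. The share of all genes at day 35 without replicate 1 was given with the cadherin counts above.

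Of 7 regulators of CDH1 and of epithelial to mesenchymal transition tested, 1 was higher and 2 lower at day 30, and 1 was higher at day 35. Beside the list counts with all libraries kept, 15.4% of all genes passed at day 30 and 23.2% at day 35. In that fit, none of the regulator, junction and protease lists passed more often than all genes at day 35. TWIST2 was 18 ± 1.8 CPM (n = 2) in day 30 abnormal and 117 ± 18.9 CPM (n = 3) in normal fetuses (log2 fold change -2.7 ± 0.43, adjusted p = 0.00334 in edgeR). TWIST1, like TWIST2 a mesenchymal transcription factor that can repress CDH1, was lower (-1.59 ± 0.25, adjusted p = 0.00334). OVOL1, an epithelial factor, was higher (3.77 ± 0.59, adjusted p = 0.0031), as was the epithelial splicing factor ESRP1 at day 35 (2.89 ± 0.74, adjusted p = 0.0174), where the libraries overlapped. Of 9 nectin and tight-junction genes tested, 4 were higher and none lower at day 30: EPCAM (2.7 ± 0.63), OCLN (2.2 ± 0.63), NECTIN2 (1.99 ± 0.48) and F11R (1.14 ± 0.32). At day 35, 2 were higher, among them OCLN (2.8 ± 0.62, overlapping). Of the 8 proteases and secretase subunits that cut cadherins, none passed at day 30 and PSEN2 passed as lower at day 35 (-1.22 ± 0.34, adjusted p = 0.0248). FAT1, a giant cadherin outside the rule by name, was higher at day 35 (1.3 ± 0.2, adjusted p = 0.0016) and did not pass at day 30 (0.35 ± 0.2). Without day 35 abnormal replicate 1 or 2, 3 of the 7 regulators were higher and 3 lower at day 30, beside 31.5% and 31.6% of all genes. For day 35 without replicate 1, the share of all genes was given with the cadherin counts above. Without day 35 abnormal replicate 1, 1 junction gene was higher and 2 lower at day 35, and the day 35 calls of ESRP1 (-2.28, adjusted p = 0.0978), OCLN (-0.59, 0.53) and PSEN2 (-1.5, 0.0906) were lost, and that of FAT1 held (1.26, adjusted p = 0.00289).

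Normal clones and naturally fertilized fetuses were compared to ask how clones labelled normal differ from fertilized fetuses. At both days normal clones had higher CDH12, CDH20, CDH24 and PCDH12 and lower CDH11, DSG1 and DSG3. CDH17 was lower at day 30 and higher at day 35. Of the tested cadherins, 8 of 23 passed at day 30, beside 29.3% of all genes (14% higher, 15.3% lower), and 14 of 23 at day 35, beside 42.3% (22.1% higher, 20.1% lower). The median over tested cadherins was 0.4 at day 30 and 0.75 at day 35, beside 0 and 0.06 over all genes. The class and marker counts of this comparison, with all libraries kept, are to be read beside the shares just given. Without day 30 NF replicate 1, 6 of 24 passed at day 30, beside 22.9% of all genes, and without replicate 2, 5 of 24, beside 12.5%. Without either day 35 abnormal library, which enters only the estimate of spread, 12 of 24 passed at day 30, beside 43.3% and 43.2%.

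Among the type II cadherins, 3 of 6 were higher and 1 lower in normal clones at each day. CDH20 was measured at 8.37 to 13 CPM in day 30 normal and at 3.41 and 1.22 CPM in day 30 NF libraries (log2 fold change 2.2 ± 0.45, adjusted p = 0.00529). At day 35 it was 20.2, 16.8 and 15.1 CPM against 1.71 and 1.05 CPM (3.63 ± 0.5, adjusted p = 0.000378). CDH24 gave 26.9 and 15.7 CPM in day 30 NF and 18.1 and 11.4 CPM in day 35 NF libraries, against 65.5 to 74.5 CPM and 51.7 to 73.1 CPM in normal clones (1.71 ± 0.3, adjusted p = 0.0025, and 2.12 ± 0.31, adjusted p = 0.000556). Both genes were free of overlap at both days, and their calls held with each of the 14 libraries left out. The day 30 value of CDH20 was 3.12 without NF replicate 1 and 1.65 without NF replicate 2.

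CDH12 was higher as well, at 10.6, 13.4 and 12.4 CPM against 2.59 and 2.13 CPM at day 30 (log2 fold change 2.35 ± 0.5, adjusted p = 0.00584) and at 17, 17.2 and 11.4 CPM against 3.59 and 1.92 CPM at day 35 (2.45 ± 0.5, adjusted p = 0.00298). Its day 30 call was lost without day 30 NF replicate 2 (2.22, adjusted p = 0.0518). The neural markers, 10 of 13 matched, summed to 4420 to 5190 CPM in day 30 normal and 1820 to 2960 CPM in day 30 NF libraries, and to 5330 to 7440 CPM against 2020 to 2160 CPM at day 35. Of these 10 genes, 8 passed as higher at day 30 and 9 at day 35; their part in the levels of CDH12 and the other type II cadherins was not tested.

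CDH11 was lower in normal clones, with 1650 and 1150 CPM in day 30 NF and 1090 and 1010 CPM in day 35 NF libraries. Normal clones lay below both pairs, at 777 to 823 CPM on day 30 (log2 fold change -0.81 ± 0.18, adjusted p = 0.00724) and 612 to 797 CPM on day 35 (-0.52 ± 0.18, adjusted p = 0.0389). The day 30 call was lost without day 30 NF replicate 1 (-0.52, adjusted p = 0.0809), and the day 35 call with any of the 6 normal or 2 day 35 NF libraries left out (adjusted p up to 0.168). Over all 23 alternative settings, each left-out library included, the day 35 call was lost in 12. The mesenchyme and bone markers, 7 of 11 matched, summed to 11700 to 14500 CPM in day 30 normal and 40600 to 42600 CPM in day 30 NF libraries. At day 35 the sums were 15300 to 25800 CPM against 30800 to 34800 CPM, and the part of these markers was not tested. CDH19 did not pass at either day, and CDH1, at 16.8 and 20.6 CPM in day 30 NF and 10.8 and 19.9 CPM in day 35 NF libraries, lay below normal clones without passing (1.11 ± 0.88, adjusted p = 0.366, and 1.82 ± 0.91, adjusted p = 0.127).

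Desmosomal cadherins were lower in normal clones, 2 of 4 at day 30 and 3 of 4 at day 35. DSG3, a desmoglein of stratified epithelium, was measured at 9.96 and 14.9 CPM in day 30 NF and at 1.37 to 1.66 CPM in day 30 normal libraries (log2 fold change -3.04 ± 0.78, adjusted p = 0.0161). At day 35 it was 12 and 17.1 CPM against 1.37 to 2.76 CPM (-2.93 ± 0.77, adjusted p = 0.012). DSG1 averaged 2.78 ± 1.24 CPM (SD, n = 2) in day 30 NF and 0.224 ± 0.197 CPM (n = 3) in normal fetuses (-3.38 ± 0.91, adjusted p = 0.018 in edgeR), and at day 35 3.38 ± 0.907 against 0.264 ± 0.117 CPM (-3.56 ± 0.91, adjusted p = 0.00962). Neither gene's libraries overlapped. The day 30 calls were lost without day 30 NF replicate 2 or day 30 normal replicate 1 or 2, that of DSG3 also without normal replicate 3 (adjusted p up to 0.113), and both day 35 calls without day 35 NF replicate 2 (0.0652 for DSG1, 0.0725 for DSG3). DSG2 gave 29.8 and 22.7 CPM in day 35 NF and 9.08, 13 and 11.6 CPM in day 35 normal libraries, again apart (-1.22 ± 0.35, adjusted p = 0.0155), a call lost without day 35 NF replicate 1 or day 35 normal replicate 1 (adjusted p up to 0.105).

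Among atypical cadherins, CDH17 was lower in normal clones at day 30 and higher at day 35. It was measured at 0.482, 0.152 and 0.369 CPM in day 30 normal and at 2.59 and 2.13 CPM in day 30 NF libraries (log2 fold change -2.8 ± 0.78, adjusted p = 0.0206). At day 35 it was 12.4, 16 and 4.34 CPM against 0.342 and 0.349 CPM (4.88 ± 0.84, adjusted p = 0.00126). The groups were apart at both days. The day 30 call was lost without either day 30 NF library or day 30 normal replicate 2 or 3 (adjusted p up to 0.0822), and the day 35 call held with each library left out. The difference between the days, a comparison added after the data were seen, was 7.68 ± 1.14 and did not pass (adjusted p = 0.0629). In that comparison edgeR called none of the 23 cadherins (7 at an unadjusted p under 0.05; DESeq2 called 2 and limma 0), beside 0.0202% of all genes.

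Cadherin-related genes of epithelial brush borders and their relatives were low and higher in normal clones at day 35. CDHR4 had 0 counts in both NF libraries and 56 counts in the 3 normal ones at 2.69, 4.74 and 3.65 CPM, at least 14-fold higher (adjusted p = 0.000942). CDHR5 averaged 4.95 ± 3.04 CPM (SD, n = 3) against 0.435 ± 0.373 CPM (n = 2; log2 fold change 3.43 ± 0.89, adjusted p = 0.0105 in edgeR). CDHR2 averaged 2.53 ± 1.42 against 0.346 ± 0.00522 CPM (2.8 ± 0.88, adjusted p = 0.0249). Their libraries did not overlap; CDHR5 was lost without day 35 NF replicate 1 (2.77, adjusted p = 0.0898) and CDHR2 without either day 35 NF library (0.128 and 0.139).

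Of the 5 protocadherins, PCDH12 was higher at both days. It gave 36.4, 32.6 and 31.9 CPM in normal and 3.96 and 11.9 CPM in NF libraries at day 30 (log2 fold change 2.09 ± 0.45, adjusted p = 0.00652) and 50.8, 50.7 and 46.1 CPM against 15.2 and 13.6 CPM at day 35 (1.77 ± 0.44, adjusted p = 0.00817). Groups were apart at both days, and the day 35 call was lost without day 35 NF replicate 2 (adjusted p = 0.0733). The day 30 value was 1.5 without NF replicate 1 and 3.08 without NF replicate 2. The sum of the endothelial markers was 675 to 700 CPM in day 30 normal and 228 and 766 CPM in day 30 NF libraries, and 4 of the 10 passed as higher in normal clones. At day 35 the sum overlapped, at 761 to 858 CPM in normal and 754 to 907 CPM in NF libraries, and 3 passed as higher. None passed as lower at either day, and their part in the PCDH12 result was not tested. The X-linked PCDH19, a protocadherin of developing brain, was lower in day 35 normal clones, at 4.71, 8.29 and 8.9 CPM against 18.3 and 33.2 CPM (-1.82 ± 0.41, adjusted p = 0.0052), and so was the X-linked PCDH11X, at 1.01, 0.987 and 0 CPM against 14.5 and 5.59 CPM (-3.81 ± 0.97, adjusted p = 0.00941). Neither overlapped; PCDH19 was lost without day 35 NF replicate 2 (-1.33, adjusted p = 0.0771) and PCDH11X without day 35 NF replicate 1 (-2.97, adjusted p = 0.0781).

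**Figure D3:**
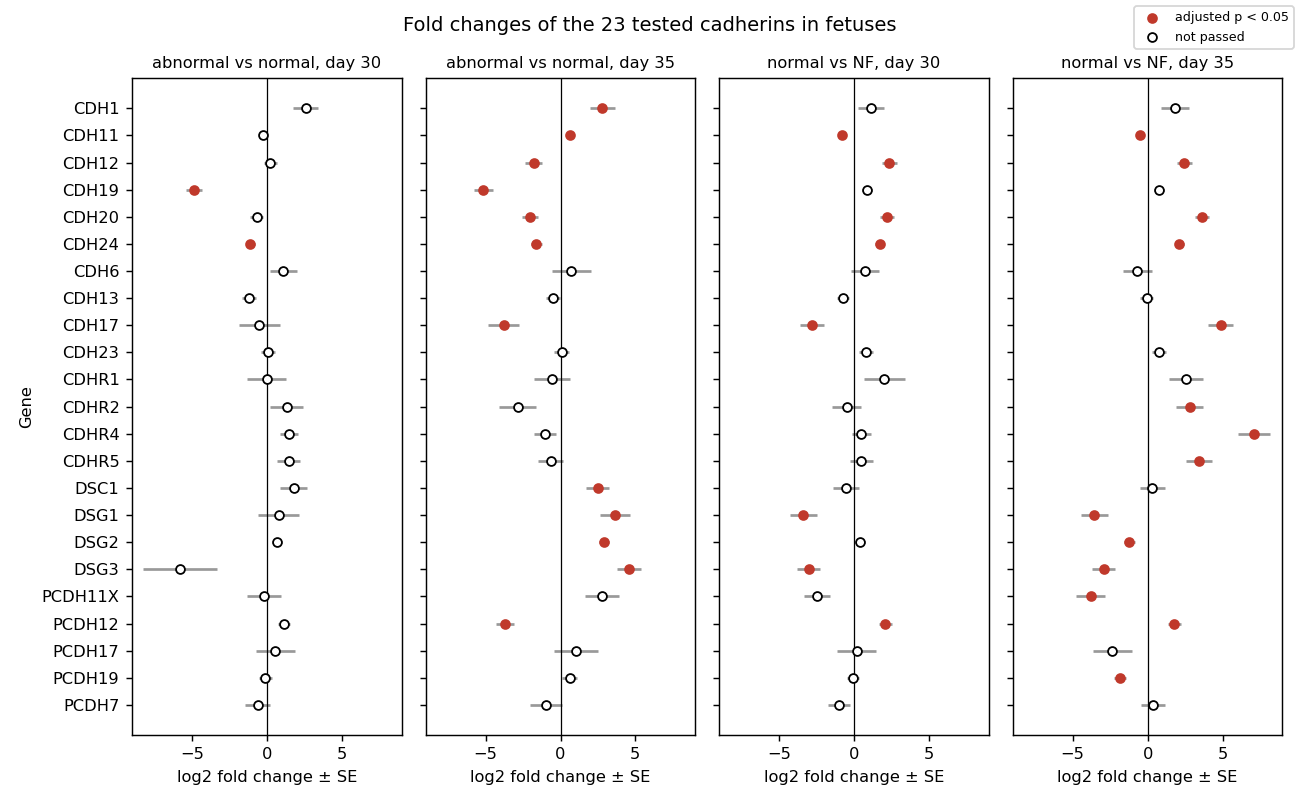
Log2 fold changes of the 23 tested cadherins in 4 fetus comparisons, as points with bars of 1 SE; filled points passed at adjusted p under 0.05 in edgeR. CDH12, CDH20, CDH24 and PCDH12 lie right of 0 in normal clones against NF at both days, and CDH19 lies farthest left among the filled points in abnormal against normal fetuses at both days.

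Catenin and plaque genes were higher in normal clones in 4 of 14 cases at day 30, with none lower, and in 5 with 1 lower at day 35 (medians 0.08 and 0.74), beside 29.3% and 42.3% of all genes. ARVCF was higher at both days (log2 fold change 1.78 ± 0.24 and 2.25 ± 0.24, adjusted p = 0.000595 and 0.000131), as was PKP2 (1.75 ± 0.49 and 1.42 ± 0.49), while CTNNB1, beta-catenin, was lower at day 35 (-0.56 ± 0.15, adjusted p = 0.0112). Of the 7 EMT regulators, 2 were higher and 1 lower at day 30 and 3 higher and 1 lower at day 35. GRHL2, an epithelial factor that maintains CDH1, was higher (3.15 ± 0.98 and 3.35 ± 0.99), TWIST1 was higher (1.98 ± 0.26 and 1.37 ± 0.25) and SNAI2 lower (-1.38 ± 0.38 and -1.42 ± 0.38). Of the 9 nectin and junction genes, 1 passed in each direction at day 30 and 2 were higher and 3 lower at day 35, with NECTIN1 lower at both (-1.77 ± 0.28 and -1.61 ± 0.28). The sheddase ADAM17 was lower at both days (-2.06 ± 0.67 and -2.65 ± 0.69), among 2 lower of 8 protease genes at day 30 and 1 higher and 1 lower at day 35. The day 30 calls of ARVCF, TWIST1 and NECTIN1 held without either day 30 NF library. That of PKP2 was lost without either (adjusted p = 0.1 and 0.0953), and those of GRHL2 (0.189), SNAI2 (0.114) and ADAM17 (0.237) without replicate 2.

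Abnormal clones were also set against NF fetuses, a comparison that shares libraries with the 2 above. At day 30, 9 of 23 cadherins passed, beside 30% of all genes (15.5% higher, 14.5% lower): CDH1, CDH12, CDH20 and PCDH12 were higher and CDH11, CDH13, CDH17, CDH19 and DSG3 lower. PCDH12 was 9.21 times higher in the mean (log2 fold change 3.21 ± 0.49, adjusted p = 0.00199), and CDH1 13 times (3.69 ± 1.01, adjusted p = 0.0202), the latter lost with any of the 4 compared libraries left out (adjusted p up to 0.0972). CDH19 was lower by a pooled ratio of 17.2 (95% counting interval 4.63 to 144). DSG3, with 0 counts against 171, was at least 19-fold lower, a call lost without either day 30 abnormal library (adjusted p = 0.0529 and 0.0574). The calls of CDH17 (-3.3, adjusted p = 0.0484) and CDH20 (1.51, adjusted p = 0.0411) were each lost with 11 of the 14 libraries left out (adjusted p up to 0.228 and 0.19), and that of CDH13 without either day 30 abnormal library or NF replicate 1 (up to 0.0944). CDH20 came to 2.44 without NF replicate 1 and to 0.95 without replicate 2, and CDH17 was also lost with RLE size factors (0.0573), the replicate block (0.0644) and DESeq2 (0.111). With RLE size factors 6 passed as higher and 4 as lower. Without day 30 NF replicate 1, 6 of 24 passed, beside 21.7% of all genes, and without replicate 2, 7 of 24, beside 12.1%. Without either day 35 abnormal library 12 of 24 passed, beside 45.1% and 45.3%.

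At day 35, 5 of 23 passed, beside 23.2% of all genes (13% higher, 10.2% lower): CDH1, CDHR4, DSC1 and DSG2 higher and CDH19 lower. DSG2 stood at 95.5 and 67.4 CPM against 29.8 and 22.7 CPM, without overlap (log2 fold change 1.67 ± 0.39, adjusted p = 0.0141). That call was lost without day 35 abnormal replicate 1 (1.3, adjusted p = 0.154), without day 35 NF replicate 2 (1.48, 0.106) and with only the compared groups (0.328). For CDH1, CDHR4 and DSC1 the libraries overlapped. CDH1 and CDHR4 were also lost without either day 35 NF library, and DSC1 with 12 of the 14 libraries left out (adjusted p between 0.0506 and 0.489). None of the cadherins passed without day 35 abnormal replicate 1, where CDH19 had a value of -8.17 (adjusted p = 0.103), beside 9.68% of all genes, and 10 of 24 passed without replicate 2, beside 45.9%.

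Between day 30 and day 35, 3 of 23 cadherins changed in normal clones, beside 9.19% of all genes. CDH17 rose from 0.335 ± 0.168 to 10.9 ± 5.97 CPM (SD, n = 3 each; log2 fold change 4.99 ± 0.73, adjusted p = 0.00693 in edgeR) and CDHR2 rose from 0.235 ± 0.286 to 2.53 ± 1.42 CPM (3.25 ± 0.8, adjusted p = 0.0302). DSG2 fell from 34.1 ± 6.67 to 11.3 ± 2 CPM (-1.6 ± 0.32, adjusted p = 0.0147). No libraries overlapped; each call was lost without day 30 normal replicate 1 or 2, that of DSG2 also without day 35 normal replicate 1, and that of CDHR2 also without either day 35 NF library (adjusted p up to 0.146). In NF fetuses edgeR called 0 cadherins and 0% of all genes (3 cadherins and 351 genes at an unadjusted p under 0.05; DESeq2 called 0 cadherins and 11 genes, limma 0 and 1).

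In the embryos CDH1 was lowest in the WT group, and of 6 cadherins tested (CDH1, CDH11, CDH23, CDHR4, DSG2, DSG3) only CDH1 passed in any comparison. It was measured at 1.77 and 8.88 CPM in WT, 150 and 66.3 CPM in WT+Kdm4A, 30.5 and 270 CPM in XIST-KO and 38.4 and 72.3 CPM in IVF libraries. Both WT libraries lay below all 6 others. Against WT, CDH1 was 20.3 times higher in the mean in WT+Kdm4A (log2 fold change 4.34 ± 1.16, adjusted p = 0.0444, over 6958 genes), where 7.43% of all genes passed (2.95% higher, 4.48% lower). That call was lost without WT replicate 1 or 2 (3.66, adjusted p = 0.191, and 5.87, 0.114), without IVF replicate 1 or 2 (0.0521 and 0.0707), with RLE size factors (0.0535) and with limma (0.143).

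In XIST-KO, CDH1 was 28.2 times the WT level in the mean, a difference that missed the threshold (log2 fold change 4.82 ± 1.18, adjusted p = 0.0685) and passed in DESeq2 (adjusted p = 0.000118). edgeR called 0 of 6 cadherins there, beside 1.11% of all genes, 0.417% higher and 0.69% lower (2 cadherins, CDH1 and DSG2, at an unadjusted p under 0.05; DESeq2 called 2 and limma 0). Between WT and IVF it was lower by -3.38 ± 1.11 (adjusted p = 0.0943; DESeq2 0.00629), with 0 of 6 called in edgeR beside 5.71% of all genes, 4.28% higher and 1.42% lower (3 at an unadjusted p under 0.05, CDH1, DSG2 and DSG3; DESeq2 called 1 and limma 0). The 2 groups did not overlap. XIST-KO and WT+Kdm4A each showed 0 calls against IVF, beside 0.0431% of all genes (2 and 3 cadherins at an unadjusted p under 0.05; DESeq2 and limma called 0), with CDH1 values of 1.44 ± 1.02 and 0.96 ± 1.01. The epithelial sum was 36300 to 105000 CPM over the 8 embryo libraries, and none of its 8 tested genes passed in these WT comparisons. The inner cell mass and epiblast markers, 8 of 10 matched, summed to 1160 and 2900 CPM in WT and to 43.9 to 361 CPM in the other 6 libraries, with NANOG and SOX2 at 0 in WT. Of 4 tested, 1 was higher in WT than in IVF, 1 was lower in WT+Kdm4A than in WT and none passed between XIST-KO and WT, and their part in the CDH1 levels was not tested.

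The other cadherins of the embryos were low and uneven between libraries. DSG2 had 100 counts in WT, all in replicate 1 (16.1 and 0 CPM), 8.37 and 9.42 CPM in WT+Kdm4A, 0 in both XIST-KO libraries and a single count in IVF. CDH11 had 58 counts in IVF (2.75 and 4.91 CPM), 1 count in WT and none in the other groups. The IVF level was 47.2 times the WT level (95% counting interval 8.14 to 1900), at least 37-fold that of XIST-KO and at least 38.4-fold that of WT+Kdm4A, and none of these differences passed. CDHR4 was found only in WT+Kdm4A, at 0.963 and 2.87 CPM. DSG3 gave 1.22 and 2.21 CPM in IVF, 1.26 and 0.0798 CPM in WT+Kdm4A and 0 elsewhere. CDH23 was at 0.875 to 11.2 CPM in every embryo library and did not pass.

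**Figure D4:**
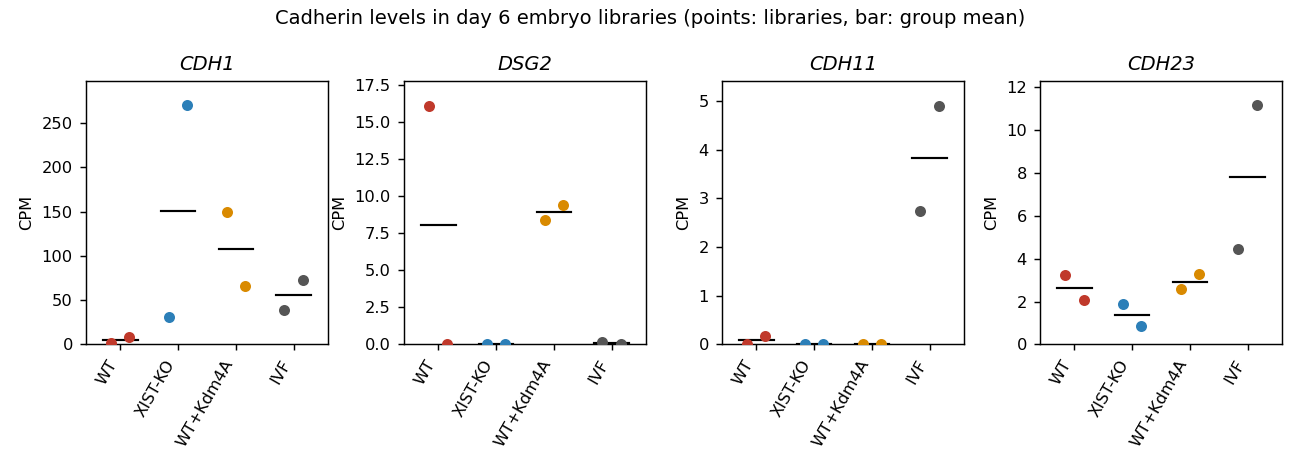
Levels in CPM (linear axes from 0) of CDH1, DSG2, CDH11 and CDH23 in the 4 embryo groups; each point is a library and each bar the group mean. Both WT libraries are low for CDH1, the XIST-KO libraries lie far apart, and DSG2 in WT comes from a single library.

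Intracellular partners moved in both directions in the embryos. Between WT and IVF, desmoplakin (DSP) was 441 ± 1.72 against 30.1 ± 3.8 CPM (SD, n = 2 each; log2 fold change 3.87 ± 0.81, adjusted p = 0.0218 in edgeR) and PKP3 332 ± 12 against 13.3 ± 8.71 CPM (4.65 ± 1.05, adjusted p = 0.0281), while PKP4 was lower (-4.41 ± 1.11, adjusted p = 0.0429), making 2 higher and 1 lower of 14 genes, beside 5.71% of all genes. In WT+Kdm4A against WT, where 7.43% of all genes passed, 2 were higher and 2 lower. CTNND1 (3.14 ± 0.86, adjusted p = 0.0477 in edgeR) and PKP4 (4.11 ± 1.1, 0.0446) were higher. DSP (-3.81 ± 0.81, 0.0202) and PKP3 (-4.12 ± 1.02, 0.036) were lower. How these partner calls fare with a library left out was not examined. FAT1 was lower in WT than in IVF (-6.47 ± 1.34, adjusted p = 0.0217) and higher in WT+Kdm4A than in WT (5.39 ± 1.28, adjusted p = 0.0305). These comparisons share the WT libraries. None of the 14 genes passed between XIST-KO and WT, beside 1.11% of all genes.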

How the data were processed

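The deposited tables hold, per RefSeq transcript record, an expected count and a TPM that the authors made with RSEM 1.2.4; the submitters' processing notes name Sscrofa11.1 and susScr11, while the aligner is not given in the sources read. Records were joined to symbols by accession without version (25305 of 65927, 38.4%) and summed, giving 14389 genes. Summed expected counts were rounded and fitted in edgeR 4.0.16 (R 4.3.3; filterByExpr, TMM, quasi-likelihood F-test, Benjamini-Hochberg over all genes tested), with 14 fetus and 8 embryo libraries apart, since per the labels' protocols they were built with different kits, from total RNA and from cDNA. The common biological coefficient of variation came to 0.29 (fetuses) and 0.893 (embryos). Alternatives were DESeq2 1.42.0, limma 3.58.1 on log2(TPM + 1), RLE, other filters, fewer groups, a replicate block, labelled sex, matching with version and leaving out each library. Intervals (95%, exact) and the floor of 3 counts cover counting error only. The code was tested on simulated counts. Members and lists were chosen with earlier results of these data known. Named with values were CDH1, CDH11, DSG2 and called members with mean log2 CPM of at least 1 and separate libraries, at most 10 a comparison by fold, other called members by group means, and up to 4 called partners a list. Low values and members named without a call were added after their values were seen. Results for some genes are not reported here.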

Additional observations from a re-analysis of the deposited data

Results flagged for a closer look

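For 3 cadherins the difference between abnormal and normal fetuses was itself different at day 35 and day 30, by the interaction test in edgeR over 9911 genes. The day 35 effect minus the day 30 effect was 2.23 ± 0.5 for DSG2 (SE, log2 scale; adjusted p = 0.0365), 10.38 ± 2.12 for DSG3 (adjusted p = 0.03) and -4.81 ± 0.74 for PCDH12 (adjusted p = 0.00797). The size for DSG3 depends on the treatment of its 0 counts in day 30 abnormal fetuses. No group held enough libraries to test for a single far value within it. DSG3 was measured at 77.9 and 2.7 CPM in the day 35 abnormal libraries, and its call was lost with any of 8 libraries left out. The DSG2 call was lost with any of 10 left out, and the PCDH12 call held with each left out.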

How the results depend on the processing

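Of 64 calls of a cadherin in a comparison, 20 held with each library left out. Without day 35 abnormal replicate 1 the sign turned or the value reached 0 for CDH1 (-2.02), DSC1 (-6.41) and DSG1 (-3.42) between abnormal and normal fetuses at day 35, for DSC1 over both days (-2.32), and for CDH1 (-0.25), CDHR4 (0) and DSC1 (-6.14) against NF at day 35. Over all libraries left out, the highest values of these 7 were 3.72, 3.2, 4.17, 2.48, 5.5, 6.53 and 3.46. The number of all genes called also moved widely with the library left out. The cadherin counts that follow are therefore no measure of cadherins alone. With a library left out, cadherins called numbered 1 to 7 (abnormal against normal, day 30), 5 to 14 (day 35), 5 to 11 (both days), 1 to 6 (interaction), 5 to 12 and 8 to 15 (normal against NF, day 30 and 35), 4 to 12 and 0 to 10 (abnormal against NF), 0 to 6 (day 35 against day 30, normal), 0 (NF), 0 to 2 (added interaction), 0 to 1 in each of the 3 embryo comparisons with WT and 0 in those with IVF alone.

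Matching with version left 4488 genes and 5 tested cadherins in fetuses and 2 in embryos. In the same order of fetus comparisons it gave 0, 1, 2, 0, 2, 1, 3, 1 and 0 cadherins, beside 12.7%, 20.5%, 27.9%, 3.88%, 24.7%, 38.2%, 24.8%, 19.1% and 6.04% of all genes, and 0 for WT+Kdm4A against WT, beside 6.02%. With only the compared groups the counts, each beside the share of all genes, were 9 of 17 (abnormal against normal, day 30; 42.2%), 3 of 22 (day 35; 3.67%), 0 of 17 (abnormal against NF, day 35; 0%), 7 of 18 (normal clones between days; 40.1%), 2 of 24 (added interaction; 4.53%) and 2 of 4 (WT+Kdm4A against WT; 24.8%). DESeq2 gave 4 (day 30; 21%), 5 (interaction; 9.54%), 2 (added interaction; 3.55%), 1 (WT against IVF; 21.4%) and 2 (XIST-KO against WT; 13.6%). Labelled sex marked only day 30 NF replicate 2, so as a covariate it set that library apart and could not adjust for sex. It gave 5 for normal against NF at day 30 (13.1%) and 2 for the added interaction (0.565%). With no filter the counts were 1 of 12 for WT against IVF (10.3%) and 2 of 12 for XIST-KO against WT (5.98%). RLE and limma gave 0 each for WT+Kdm4A against WT (6.73% and 10.9%). Replicate numbers did not pair the libraries (1 of 15 fetus and 0 of 6 embryo correlations over 0.1), and the replicate block gave 4 (both days; 19.9%), 1 (interaction; 1.56%), 1 (WT against IVF; 6.17%) and 1 (XIST-KO against WT; 2.03%). The causes of these moves were not tested.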
